A study of Homo sapiens with 21 samples.

Results

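Replication-dependent histone genes are the clustered genes that supply histones to newly made chromatin, and they were followed here by histone type across 7 groups of libraries from 2 human leukaemia cell lines. A gene was included when its symbol began with HIST1H, HIST2H, HIST3H or HIST4H and its row held at least 10 counts summed over all 21 libraries. Of 74 such rows, 60 were included: 6 of 6 H1, 14 of 18 H2A, 17 of 20 H2B, 11 of 15 H3 and 12 of 15 H4. The genes were thus chosen by their counts summed over all libraries, which are given as a description only. Just inside the limit stood HIST1H3E with 12 counts and HIST1H3C with 15, and just outside it HIST1H2AA with 9, HIST1H2BI with 6 and HIST2H2BA with 6. HIST1H4G and HIST1H2BA had 5 counts each. The other 9 rows held 0 counts: HIST1H3G, HIST1H2APS1, HIST3H3 and the near-identical copies HIST2H2AA3 and HIST2H2AA4, HIST2H3A and HIST2H3C, and HIST2H4A and HIST2H4B.

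The libraries were made from total RNA with a strand-specific kit for messenger RNA, and each group held 3. In sequencing batch 1 the groups were OCI-AML3 labelled resistant to StAMP (biological replicate 1, here resistant 1), untreated K562 parental cells, OCI-AML3 given DMSO (vehicle) and untreated parental OCI-AML3. Batch 2 held OCI-AML3 labelled resistant 2 and resistant 1, which are 2 biological replicates of StAMP resistance, and a vehicle group given DMSO. OCI-AML3 is a myeloid leukaemia line and K562 an erythroleukaemia line, the resistant groups carry the genotype label Res and the other groups WT, and StAMP is the labels' name for the agent. The sources used here do not give its dose and duration, or whether a resistant line came from 1 clone. The labels do not say that the 3 libraries of a group came from separate cultures, so the p-values reflect only how far these libraries vary, and that variation may be technical.

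Cells transcribe replication-dependent histone genes mainly during S phase, when new DNA has to be packed. Core histones H2A, H2B, H3 and H4 form the nucleosome, and linker histones of the H1 family bind the DNA that enters and leaves it. Most messengers from these genes carry no poly(A) tail: they end just after a short stem-loop, which the stem-loop binding protein SLBP holds during processing, export and translation. NPAT, a coactivator driven by cyclin E and CDK2, switches the gene clusters on. Some of the genes also give polyadenylated messengers that read past the stem-loop. Libraries that select messenger RNA by its tail therefore capture the family poorly, and a level here is that of captured RNA.

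The stem-loop that ends these messengers was read from the genome for each gene. All 60 genes were matched through RefSeq synonyms to GENCODE genes on hg38, and 59 had a coding sequence in which a stop codon could be placed. In all 59 a 16-base match to the histone stem-loop consensus, with no mismatch, began 23 to 63 bases after the stop codon (median 36). Of 20444 genes searched in the same window, 72 held it (0.352%), and H2AX was the only one of them outside the HIST rows. HIST2H2BC, a pseudogene, was not searched. The sequence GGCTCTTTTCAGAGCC stood in 35 genes, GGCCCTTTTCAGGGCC in 9 and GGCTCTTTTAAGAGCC in 8. The copies of the genes on which the results below turn are printed 5′ to 3′ on the gene's strand (hg38), with the stem-loop in capitals and 5 flanking bases on each side:
HIST1H1C (chr6:26055739-26055764, minus strand): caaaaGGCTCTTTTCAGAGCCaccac
HIST1H2BK (chr6:27146361-27146386, minus strand): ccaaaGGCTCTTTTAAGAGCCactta
HIST1H2AC (chr6:26124664-26124689, plus strand): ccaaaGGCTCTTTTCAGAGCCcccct
HIST1H3H (chr6:27810511-27810536, plus strand): ccaaaGGCTCTTTTCAGAGCCaccca
HIST1H4H (chr6:26285126-26285151, minus strand): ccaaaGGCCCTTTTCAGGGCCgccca
HIST2H2BE (chr1:149886183-149886208, minus strand): ccaaaGGCTCTTTTCAGAGCCaccca
HIST2H2AC (chr1:149887386-149887411, plus strand): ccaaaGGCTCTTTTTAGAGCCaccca
HIST1H1B (chr6:27866792-27866817, minus strand): ccaaaGGCTCTTTTCAGAGCCaccca
HIST1H4A (chr6:26022025-26022050, plus strand): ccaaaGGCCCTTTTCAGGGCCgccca
HIST4H4 (chr12:14770719-14770744, minus strand): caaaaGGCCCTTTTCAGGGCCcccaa
HIST1H1C, HIST1H2BK and HIST1H3H, which rose in resistant libraries, carry elements of the same form as HIST1H1B, which fell: HIST1H3H and HIST1H1B have identical printed sequences, as have HIST1H4H and HIST1H4A.

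Total counts ranged from 14066821 to 21091646 per library in batch 1 and from 30719771 to 51262668 in batch 2. Libraries labelled resistant resembled K562 in having high erythroid and low myeloid marker sums. The summed level of 14 erythroid markers was 4414 to 4749.9 CPM (read counts as a share of the library total on a common scale, corrected for library composition by edgeR's TMM factors over all libraries) in resistant 1 of batch 1, 4506 to 4700.2 in K562, 18.2 to 18.6 in vehicle and 11.2 to 12.5 in parental OCI-AML3. In batch 2 it was 1019.7 to 1441 CPM in resistant 2, 1691 to 1855 in resistant 1 and 13.2 to 16.7 in vehicle. Markers at 0 counts included ALAS2, GYPB, HBA1, HBA2, HBG1, HBZ and RHAG in vehicle of batch 1, GATA1, GYPB, HBA1, HBA2, HBG1, HBZ and RHAG in parental OCI-AML3 and ALAS2, GYPB, HBA1, HBA2, HBG2, HBZ and RHAG in vehicle of batch 2. The 15 myeloid markers summed to 85.4 to 88.2 CPM in resistant 1, 41.0 to 46.2 in K562, 2389 to 2447 in vehicle and 2652 to 2709.6 in parental OCI-AML3 of batch 1, and to 147 to 160.3 in resistant 2, 195 to 229 in resistant 1 and 2488 to 2502 in vehicle of batch 2. Among them HOXA10 and HOXA9 were at 0 in resistant 1 of batch 1, HOXA9 and MPO in K562, ELANE, HOXA10, HOXA9 and IRF8 in resistant 2 and ELANE, HOXA10, HOXA9 and IRF8 in resistant 1 of batch 2. In each resistant against vehicle comparison 14 of the 15 were called lower and 1 higher, beside 35.8 to 42.1% and 39.9 to 44% of all genes. In batch 1 the higher one was ITGAM, at 4.40 CPM in resistant 1 and 1.91 in vehicle. Against K562, 4 were tested and all 4 were higher in resistant 1, beside 31.3% of all genes. Resistance and a difference of cell line cannot be told apart in any resistant against vehicle comparison, and the part of the marker shift in the histone results was not tested.

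Detection of the histone genes was shallow. Its breadth is not a result here, since the 60 genes were kept for their counts summed over these same libraries. Rows of the 74 that fell short of 10 summed counts are not among the genes counted below. Between 52 and 54 of the 60 genes had a count in the resistant 1 libraries of batch 1, 51 to 55 in K562, 52 to 53 in vehicle and 53 to 54 in parental OCI-AML3. In batch 2 the numbers were 55 to 56 in resistant 2, 53 to 55 in resistant 1 and 49 to 50 in vehicle, and 39 genes had a count in all 21 libraries. At least 10 counts were reached by 37 to 41 genes in resistant 1, 38 to 40 in K562, 29 to 39 in vehicle and 29 to 31 in parental OCI-AML3 of batch 1, and by 39 to 46 in resistant 2, 37 to 40 in resistant 1 and 24 to 29 in vehicle of batch 2. The batch 2 vehicle libraries detected the fewest although they were among the deepest: at the total of the smallest library, 14066821 counts, 41.6 to 43.6 genes would be expected there, against 50.5 to 52.0 in resistant 2 and 48.8 to 50.2 in resistant 1.

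All 60 genes together took 0.158% ± 0.00261 of the counts in resistant 1 of batch 1 (SD, n = 3 libraries, as for each ± value below), 0.153% ± 0.00184 in K562, 0.00769% ± 0.000406 in vehicle and 0.00694% ± 0.0000887 in parental OCI-AML3. In bulk RNA, fewer cells of a type and less RNA per cell cannot be told apart. In batch 2 the shares were 0.160% ± 0.00982 in resistant 2, 0.121% ± 0.00867 in resistant 1 and 0.00469% ± 0.00105 in vehicle. HIST1H1C and HIST1H2BK alone supplied 162580 and 155168 of the 519333 histone counts. Their joint share of a library's histone counts was 65.0 to 67.01% in resistant 1, 73.7 to 74.3% in K562, 19.1 to 20.73% in vehicle and 16.7 to 19.1% in parental OCI-AML3 of batch 1, and 47.9 to 61.3% in resistant 2, 62.9 to 68.6% in resistant 1 and 37.2 to 40.7% in vehicle of batch 2.

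**Figure D1:**
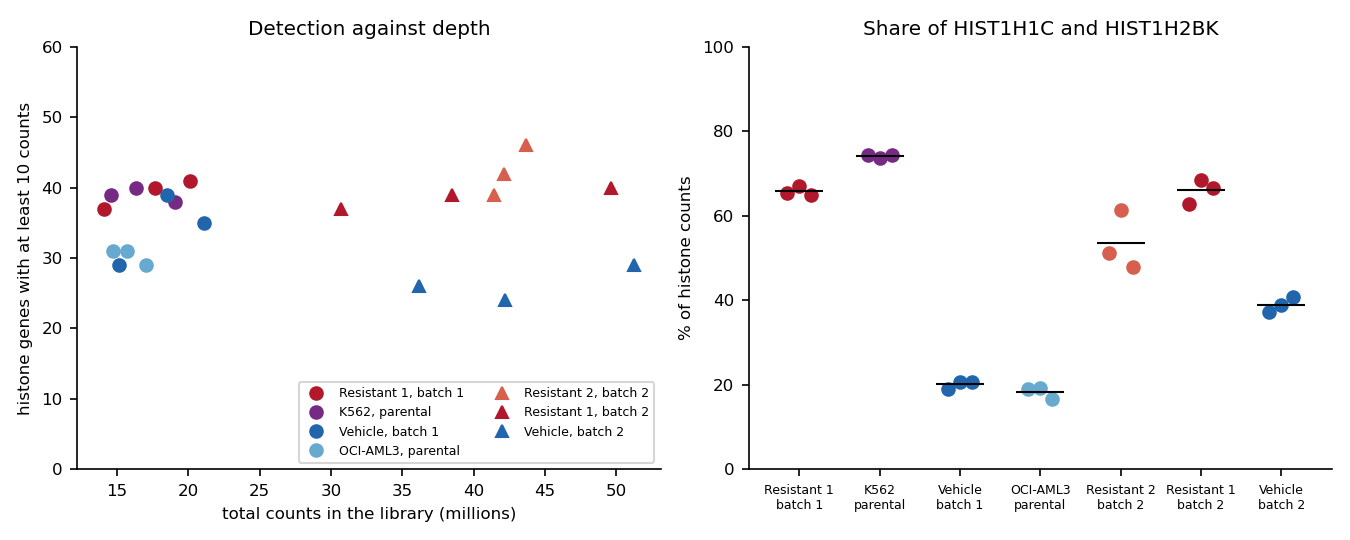
Left, number of the 60 histone genes with at least 10 counts against the total counts of each library (circles batch 1, triangles batch 2). Right, share of each library's histone counts held by HIST1H1C and HIST1H2BK, with a bar at the group mean. The 3 batch 2 vehicle libraries lie at 24 to 29 genes on the left, level with or below every other library, and the K562 libraries highest on the right, at 73.7 to 74.3%.

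Summed over each type, histone RNA was higher in every resistant and K562 library than in every vehicle and parental OCI-AML3 library of its batch. H1 genes summed to 468, 473 and 434 CPM in the 3 resistant 1 libraries of batch 1, 528, 561.9 and 542 in K562, 10.2, 10.9 and 11.2 in vehicle and 9.53, 11.2 and 9.82 in parental OCI-AML3. H2A genes summed to 157, 137 and 149.8 CPM in resistant 1, 122, 127 and 125 in K562, 12.2, 12.5 and 10.997 in vehicle and 10.01, 10.5 and 10.8 in parental OCI-AML3. For H2B the sums were 774, 789.6 and 763 CPM in resistant 1, 777, 761.97 and 806 in K562, 39.7, 40.2 and 35.8 in vehicle and 36.1, 33.8 and 33.3 in parental OCI-AML3. The resistant 1 and K562 libraries both lay far above vehicle and parental OCI-AML3 for these types. H3 genes summed to 43.4, 41.4 and 43.1 CPM in resistant 1 and 3.56, 3.08 and 2.75 in vehicle, with 30.0, 27.3 and 30.2 in K562 and 2.92, 2.94 and 3.497 in parental OCI-AML3. H4 genes summed to 38.4, 34.5 and 37.7 CPM in resistant 1 and 7.93, 6.59 and 6.17 in vehicle, with 26.3, 26.7 and 24.4 in K562 and 5.31, 4.76 and 6.20 in parental OCI-AML3. As a ratio of means, resistant 1 over vehicle in batch 1, this was 42.5 for H1, 12.4 for H2A, 20.1 for H2B, 13.6 for H3 and 5.35 for H4.

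The batch 2 libraries gave sums of the same order. H1 genes summed to 445, 549 and 370.4 CPM in resistant 2, 448, 497 and 516 in resistant 1 and 6.78, 4.33 and 5.68 in vehicle. For H2A they were 281, 212 and 268 CPM in resistant 2, 158, 152 and 149.6 in resistant 1 and 14.8, 9.40 and 14.5 in vehicle. For H2B they were 822, 770.0 and 692 CPM in resistant 2, 551, 669.8 and 575 in resistant 1 and 38.7, 25.0 and 38.1 in vehicle, again far apart. For H3 the sums were 70.8, 53.5 and 65.9 CPM in resistant 2, 30.9, 35.5 and 28.8 in resistant 1 and 1.00, 0.831 and 1.69 in vehicle, and for H4 85.9, 43.4 and 75.6 in resistant 2, 34.1, 30.2 and 30.1 in resistant 1 and 2.40, 2.55 and 3.19 in vehicle. Over vehicle, resistant 2 and resistant 1 stood 81.3 and 87.0 times as high for H1, 19.7 and 11.9 for H2A, 22.4 and 17.6 for H2B, 53.9 and 27.0 for H3, and 25.2 and 11.6 for H4. Resistant 2 exceeded resistant 1 in all 3 libraries for H2A, H2B, H3 and H4, whereas their H1 sums overlapped.

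The H1 sum rested on HIST1H1C. Without HIST1H1C the other 5 H1 genes summed to 8.71 ± 0.815 CPM in resistant 1 and 6.06 ± 0.615 in vehicle of batch 1, and to 10.1 ± 1.28 in K562 and 5.59 ± 0.759 in parental OCI-AML3. In batch 2 they summed to 9.63 ± 3.86 CPM in resistant 2, 3.51 ± 0.353 in resistant 1 and 1.98 ± 1.13 in vehicle. The H2A, H2B, H3 and H4 differences remained large without the gene of most counts: 86.4 ± 3.84 against 10.1 ± 1.06 CPM for H2A without HIST1H2AC, 263 ± 3.49 against 29.0 ± 1.63 for H2B without HIST1H2BK, 11.5 ± 1.13 against 2.84 ± 0.409 for H3 without HIST1H3H, and 21.9 ± 1.94 against 5.63 ± 0.792 for H4 without HIST1H4H, each resistant 1 against vehicle in batch 1.

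**Figure D2:**
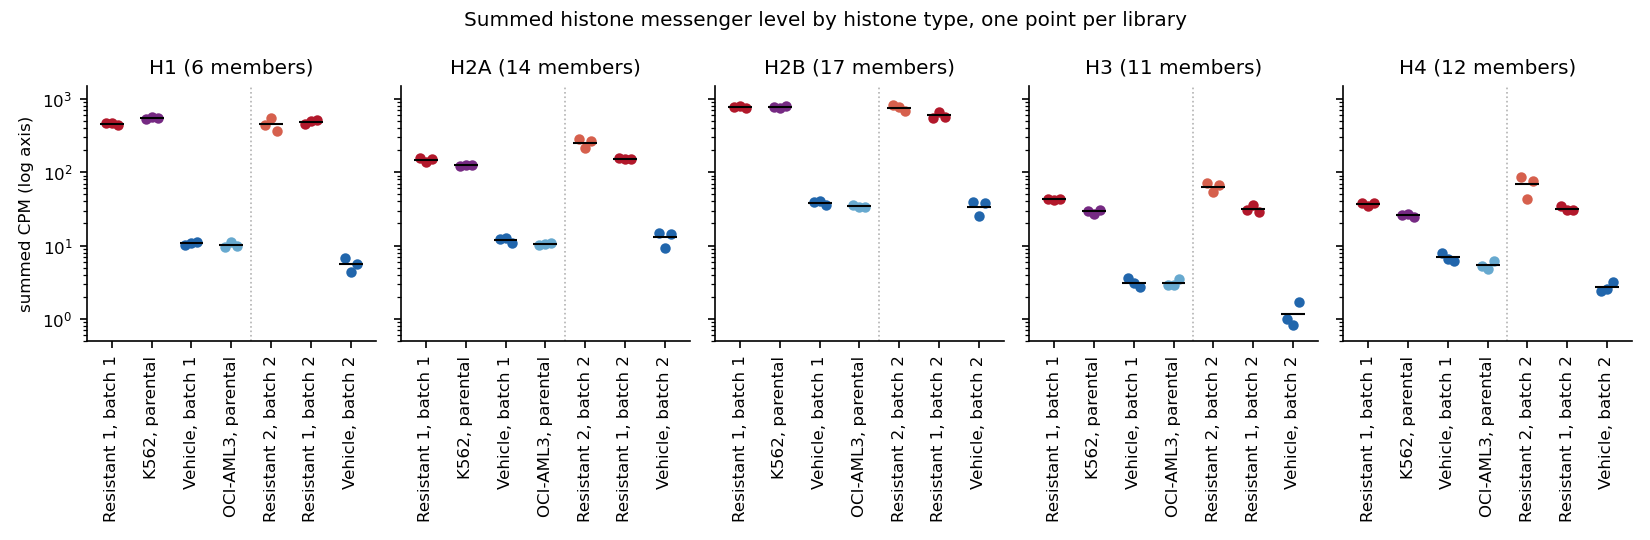
Summed CPM of each histone type (log axis), 1 point per library and a bar at the mean of the 3 libraries of a group; the dotted line parts batch 1 from batch 2. In each panel the resistant and K562 libraries stand above all vehicle and parental OCI-AML3 libraries, from 5.35 times (H4) to 42.5 times (H1) in resistant 1 over vehicle of batch 1.

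Gene by gene, the resistant libraries were set against vehicle with edgeR's quasi-likelihood test, with Benjamini-Hochberg adjustment over all genes tested and a call at adjusted p under 0.05. In batch 1, resistant 1 against vehicle gave 33 higher, 6 lower and 4 not called of 43 tested, against a background of 86% of all 14505 genes called, 44% higher and 42.1% lower. By 2-fold or more, 30 histone genes were higher and 5 lower, beside 22.4% and 22.1% of all genes. The median log2 fold change was 2.34 over the tested histone genes and 0.02 over all genes. For resistant 2 against vehicle in batch 2, calls were 39 higher, 2 lower and 2 not called of 43 tested (background 76.1%, with 40.2% higher and 35.9% lower), with a median of 4.43. For resistant 1 against vehicle in batch 2 they were 37 higher, 3 lower and 3 not called of 43 tested (background 75.7%, 39.9% higher and 35.8% lower), with a median of 3.33. Both batch 2 comparisons share the vehicle libraries. Genes pass the count filter more readily where they are high, so these counts describe the tested genes and not all 60.

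K562 parental against OCI-AML3 parental, a comparison of 2 cell lines that holds no resistant library, gave 28 higher, 2 lower and 7 not called of 37 tested (background 85.1%, 42.6% higher and 42.5% lower) and a median log2 fold change of 2.56. Across the 3 resistant against vehicle comparisons, 31 genes were called higher in all 3 and 2, HIST1H1B and HIST1H4A, lower in all 3, of 39 tested in all 3. Of the 14179 genes of any kind tested in all 3, 31% were called higher and 29.8% lower in all 3, and the batch 2 comparisons share their vehicle libraries. With the replicate number as a block, HIST1H4A was no longer called in resistant 1 of batch 2 (adjusted p = 0.0506). By type, the genes called higher in resistant 1 of batch 1 were 3 of 4 tested for H1, 8 of 11 for H2A, 12 of 15 for H2B, 4 of 6 for H3 and 6 of 7 for H4. In resistant 2 they were 4 of 5, 8 of 10, 15 of 15, 5 of 5 and 7 of 8 for the same types.

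**Figure D3:**
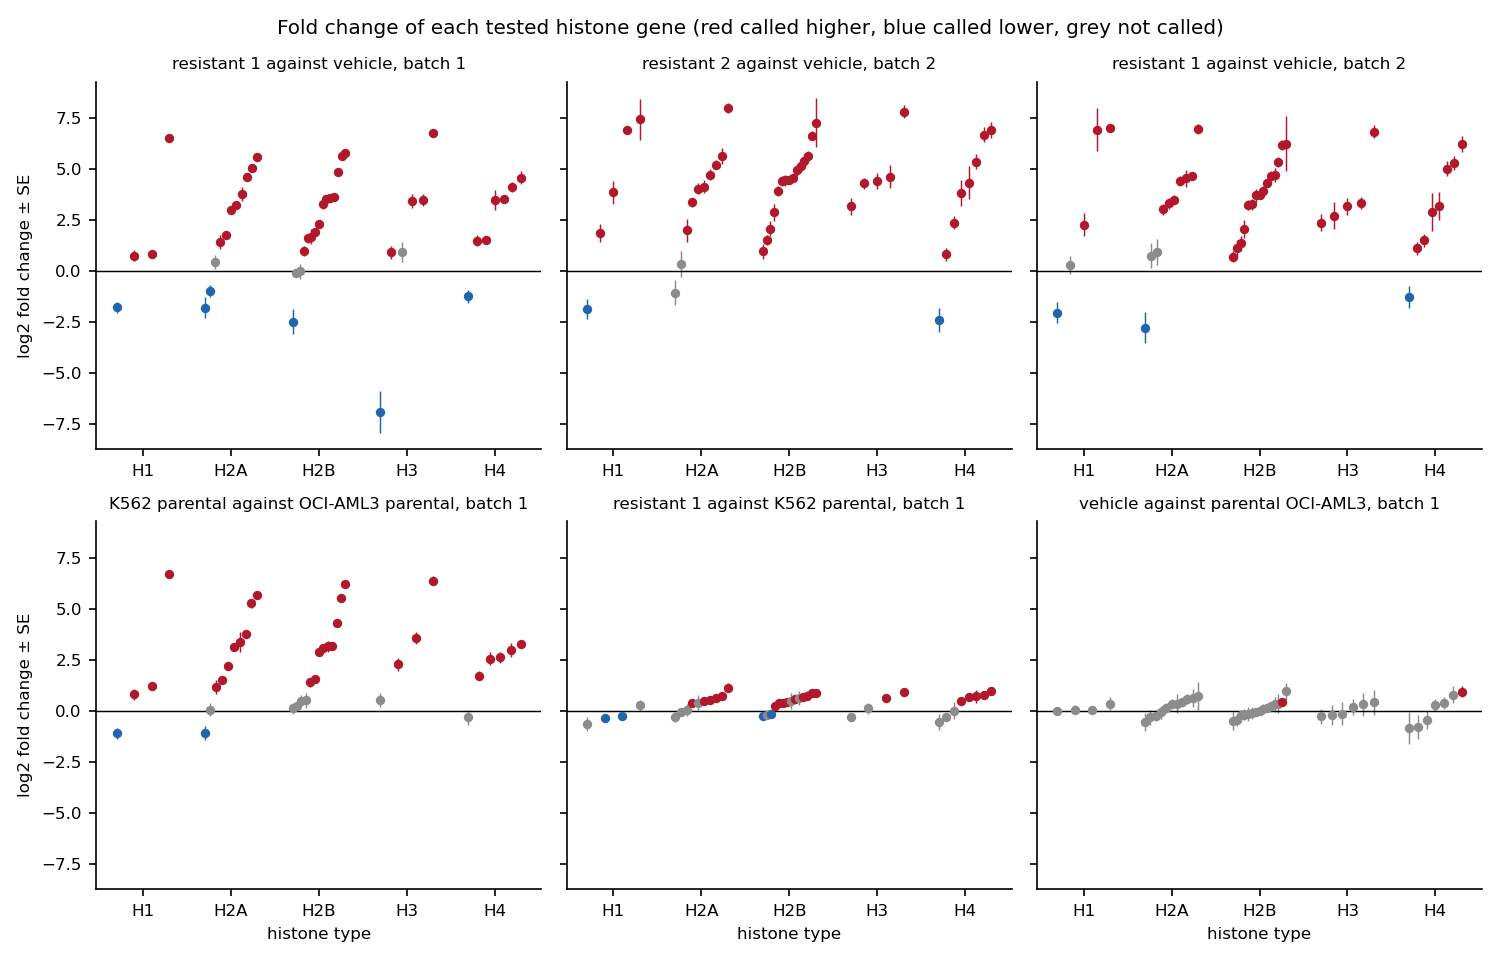
Log2 fold change of each tested histone gene (bars, standard error) by type in 6 comparisons, red where called higher, blue where called lower and grey where not called. Values for HIST1H3I, HIST1H1T and HIST1H2BB are fitted against groups of 0 counts and have no fixed size. The median is 2.34 in resistant 1 against vehicle of batch 1 and 2.56 in K562 against OCI-AML3 parental, against 0.11 in vehicle against parental OCI-AML3.

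Linker histone RNA was dominated by HIST1H1C (newer symbol H1-2, chromosome 6, 26055740 to 26056470 on hg38, a single exon with 642 coding bases). It had 459, 465 and 425 CPM in resistant 1, 519, 550.5 and 532 in K562, 4.72, 4.22 and 5.25 in vehicle and 4.44, 4.76 and 4.60 in parental OCI-AML3 of batch 1. In batch 2 it had 434, 544 and 358 CPM in resistant 2, 444, 493 and 513 in resistant 1 and 3.497, 3.10 and 4.25 in vehicle. No resistant or K562 library came near a vehicle or parental OCI-AML3 library. The log2 fold change was 6.53 (SE 0.07, adjusted p = 8.36e-31) for resistant 1 in batch 1, 6.93 (SE 0.19, adjusted p = 2.61e-13) for resistant 2, 7.04 (SE 0.19, adjusted p = 2.54e-13) for resistant 1 in batch 2, and 6.74 (SE 0.07, adjusted p = 3.27e-25) for K562 against OCI-AML3 parental.

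HIST1H1E (H1-4), another somatic linker histone, had 5.08, 5.38 and 5.64 CPM in resistant 1 and 2.86, 3.08 and 2.50 in vehicle of batch 1, and 5.14, 1.70 and 5.08 in resistant 2, 1.40, 1.57 and 1.00 in resistant 1 and 1.66, 0.630 and 0.864 in vehicle of batch 2. It rose by 0.86 (SE 0.16, adjusted p = 1.41e-05) in batch 1 and by 1.89 (adjusted p = 0.00110) in resistant 2, but resistant 1 and vehicle overlapped in batch 2, at 0.30 (adjusted p = 0.561). HIST1H1D (H1-3) had 2.61, 1.36 and 2.62 CPM in resistant 1 and 1.10, 1.36 and 1.22 in vehicle of batch 1, and its groups overlapped although it was called higher, at 0.77 (SE 0.26, adjusted p = 0.00721). Without resistant 1 replicate 1 the call ended (0.59, adjusted p = 0.0731). In batch 2 HIST1H1D was higher by 3.87 in resistant 2 and 2.28 in resistant 1. HIST1H1T, a linker histone known from the testis, had 26 counts summed over resistant 1 and 18 over K562, against 0 in vehicle and 0 in parental OCI-AML3 of batch 1, and 72 and 44 in resistant 2 and resistant 1 against 0 in vehicle of batch 2. With 3 counts set for the vehicle group, it would be 9.16-fold higher in batch 1, 20.3-fold in resistant 2 and 14.3-fold in resistant 1 of batch 2. Its gene overlaps HIST1H2BC on the same strand in GENCODE, so reads of the pair may not be separable. HIST1H1A had 4 counts in resistant 1 and 0 in vehicle of batch 1 and was not tested.

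Among H2A genes, HIST1H2AC (H2AC6, chromosome 6, 26124145 to 26139116) had 66.9, 54.4 and 62.6 CPM in resistant 1, 66.1, 63.0 and 66.8 in K562, 1.25, 2.02 and 2.08 in vehicle and 1.19, 1.06 and 1.23 in parental OCI-AML3 of batch 1. In batch 2 it had 149.5, 70.8 and 137 CPM in resistant 2, 57.9, 56.7 and 51.0 in resistant 1 and 7.97, 4.38 and 7.54 in vehicle. The groups did not overlap in either batch, and the batch 2 vehicle libraries stood above those of batch 1. HIST1H2AC rose by 5.05 (SE 0.12, adjusted p = 1.65e-23) in batch 1, and in batch 2 by 4.15 (SE 0.30, adjusted p = 8.62e-08) in resistant 2 and 3.03 (SE 0.29, adjusted p = 1.17e-06) in resistant 1.

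HIST1H2AI had 24.1, 21.8 and 24.3 CPM in resistant 1 and 0.803, 0.264 and 0.305 in vehicle of batch 1, and 51.3, 46.3 and 47.5 in resistant 2, 21.9, 29.5 and 20.8 in resistant 1 and 0.233, 0.201 and 0.0997 in vehicle of batch 2. Its rise was 5.61 (SE 0.19, adjusted p = 1.58e-20) in batch 1, 7.996 in resistant 2 and 6.98 in resistant 1 of batch 2. For HIST3H2A, the H2A gene of the small chromosome 1 locus, the libraries gave 20.2, 20.9 and 20.72 CPM in resistant 1 and 2.06, 2.37 and 1.83 in vehicle of batch 1, with log2 fold changes of 3.23, 3.38 (resistant 2) and 3.51 (resistant 1, batch 2). HIST1H2AG, HIST1H2AE, HIST1H2AM and HIST1H2AK were also higher in all 3 comparisons, by 1.78 to 4.63 in batch 1. HIST1H2AH was higher in batch 1 (1.45) and not called in batch 2 (0.35 in resistant 2 and 0.94 in resistant 1). Without resistant 1 replicate 1 of batch 2 it was called there too (1.43). HIST1H2AL rose by 2.00 in resistant 2 and was not called in resistant 1 of batch 2 (0.76, adjusted p = 0.273) or of batch 1 (0.47, adjusted p = 0.211), though without vehicle replicate 1 of batch 2 the resistant 1 value was called (2.02). HIST1H2AB, HIST1H2AD and HIST1H2AJ had at most 45 counts in any group and were tested in no comparison.

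HIST1H2BK (H2BC12, chromosome 6, 27146361 to 27146855) supplied most of the H2B counts. It had 509.8, 523 and 504 CPM in resistant 1, 582, 558 and 603 in K562, 9.33, 10.9 and 8.61 in vehicle and 7.74, 7.34 and 6.01 in parental OCI-AML3 of batch 1, and 438, 455 and 348 in resistant 2, 324, 457 and 353 in resistant 1 and 20.2, 13.3 and 21.5 in vehicle of batch 2. The resistant and K562 libraries lay far above the others in both batches. Its log2 fold change was 5.67 (SE 0.07, adjusted p = 5.67e-30) in batch 1, 4.48 in resistant 2, 4.34 in resistant 1 of batch 2, and 6.24 in K562 against OCI-AML3 parental.

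HIST2H2BE (H2BC21, chromosome 1, 149884459 to 149886682) is annotated with a transcript that runs 1729 bases past its stem-loop and is known to be polyadenylated in differentiated cells. It had 82.6, 89.0 and 87.1 CPM in resistant 1 and 7.37, 6.64 and 7.03 in vehicle of batch 1, and 155, 124 and 134 in resistant 2, 85.9, 69.0 and 80.5 in resistant 1 and 6.78, 4.01 and 6.41 in vehicle of batch 2. All resistant libraries were above all vehicle libraries, with log2 fold changes of 3.57 (SE 0.08, adjusted p = 9.55e-25), 4.57 (resistant 2) and 3.75 (resistant 1, batch 2). HIST1H2BD had 41.3, 43.4 and 42.2 CPM in resistant 1 and 3.31, 3.47 and 3.67 in vehicle of batch 1 and rose by 3.55, with 3.94 in resistant 2 and 3.24 in resistant 1 of batch 2. HIST1H2BJ had 43.7, 42.8 and 43.3 CPM in resistant 1 and 0.752, 0.923 and 0.489 in vehicle of batch 1, a rise of 5.80 (SE 0.14, adjusted p = 1.89e-23), and rose by 6.65 in resistant 2 and 6.19 in resistant 1 of batch 2. The 15 H2B genes tested in batch 2 were all called higher in both resistant groups. Over all genes tested, 40.2% were called higher in resistant 2 and 39.9% in resistant 1. Of the 15, HIST1H2BB had 0 counts in vehicle and passed the count filter only through the resistant groups. HIST1H2BE and HIST1H2BM were not tested there.

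HIST2H2BF and HIST3H2BB were exceptions in batch 1. HIST2H2BF had 4.98, 6.06 and 5.18 CPM in resistant 1 and 5.92, 5.45 and 5.38 in vehicle, which overlapped (-0.10, adjusted p = 0.492), while in batch 2 it was higher by 1.55 in resistant 2 and 0.72 in resistant 1. The resistant 1 call ended without vehicle replicate 2 (0.64, adjusted p = 0.0543) or replicate 3 (0.66, adjusted p = 0.0527). HIST3H2BB averaged 0.694 ± 0.212 CPM in resistant 1 and 0.693 ± 0.138 in vehicle of batch 1 (-0.01, adjusted p = 0.983), and rose in batch 2 by 2.09 in resistant 2 and 1.16 in resistant 1, where the call ended without resistant 1 replicate 1 (0.97, adjusted p = 0.0695) or vehicle replicate 1 (0.98, adjusted p = 0.0619). HIST1H2BB had 19 counts over resistant 1 and 9 over K562, against 0 in vehicle and 0 in parental OCI-AML3 of batch 1, and 65 and 28 in resistant 2 and resistant 1 against 0 in vehicle of batch 2. With 3 counts set for the vehicle group, it would be 6.69-fold higher in resistant 1 of batch 1. On the same basis it would be 18.3-fold higher in resistant 2 and 9.09-fold in resistant 1 of batch 2.

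Of the H3 genes, HIST1H3H (H3C10, chromosome 6, 27810051 to 27811300) had 30.6, 30.4 and 32.4 CPM in resistant 1, 20.0, 18.6 and 21.3 in K562, 0.401, 0.0879 and 0.367 in vehicle and 0.108, 0.352 and 0.184 in parental OCI-AML3 of batch 1. In batch 2 it had 56.3, 42.0 and 51.3 CPM in resistant 2, 24.5, 29.0 and 22.8 in resistant 1 and 0.187, 0.0573 and 0.432 in vehicle. Vehicle libraries held almost no HIST1H3H, 16 counts over the 3 libraries of batch 1, against 1733 in resistant 1. The log2 fold change was 6.76 (SE 0.19, adjusted p = 2.07e-22), the greatest rise of any tested histone gene in batch 1, with 7.83 in resistant 2 and 6.84 in resistant 1 of batch 2. HIST1H3D had 3.96, 3.29 and 3.21 CPM in resistant 1 and 0.602, 0.132 and 0.183 in vehicle of batch 1 (3.45), and HIST1H3B 6.01, 4.86 and 5.64 in resistant 1 and 0.803, 0.396 and 0.183 in vehicle (3.47). Both were called higher in all 3 comparisons, as was HIST1H3J (0.93 in batch 1), whose batch 1 call ended without resistant 1 replicate 1 (0.75, adjusted p = 0.0679). HIST1H3F was tested in batch 2, where it rose by 4.64 in resistant 2 and 2.73 in resistant 1, and HIST2H3D in batch 1, where it was not called (0.95, adjusted p = 0.0662) except without vehicle replicate 2 (1.85) or parental replicate 2 (0.95). HIST1H3A, HIST1H3C, HIST1H3E and HIST2H3PS2 had too few counts for a test.

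H4 genes encode 1 and the same protein, and their RNA differs in its nucleotides. HIST1H4H (H4C8, chromosome 6, 26277609 to 26285638) had 15.5, 14.8 and 14.6 CPM in resistant 1, 10.8, 10.1 and 11.04 in K562, 1.61, 0.791 and 1.41 in vehicle and 0.920, 0.705 and 1.41 in parental OCI-AML3 of batch 1, and 69.7, 29.5 and 57.3 in resistant 2, 22.3, 18.3 and 19.5 in resistant 1 and 0.373, 0.430 and 0.731 in vehicle of batch 2. The groups were separate in both batches, and the 3 resistant 2 libraries were the highest of all. HIST1H4H rose by 3.54 (SE 0.17, adjusted p = 6.14e-17) in batch 1, 6.70 in resistant 2 and 5.30 in resistant 1 of batch 2. HIST1H4I had 6.80, 6.06 and 7.61 CPM in resistant 1 and 0.552, 0.352 and 0.183 in vehicle of batch 1 (4.12), and HIST1H4K 4.89, 3.81 and 4.33 in resistant 1 and 0.201, 0.220 and 0.0611 in vehicle (4.58). HIST1H4E, HIST1H4C and HIST1H4D were likewise called in all 3 comparisons, by 1.504 (HIST1H4C) to 3.498 (HIST1H4D) in batch 1. For HIST1H4C the value in resistant 2 (0.83, adjusted p = 0.0286) was no longer called on leaving out resistant 2 replicate 1 (0.84) or 2 (0.65), or vehicle replicate 1 (0.74) or 2 (0.82). HIST1H4J had 32 counts over resistant 1 and 1 over vehicle in batch 1, 33.8 times as many after scaling, with 95% counting limits of 5.65 to 1377.

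**Figure D4:**
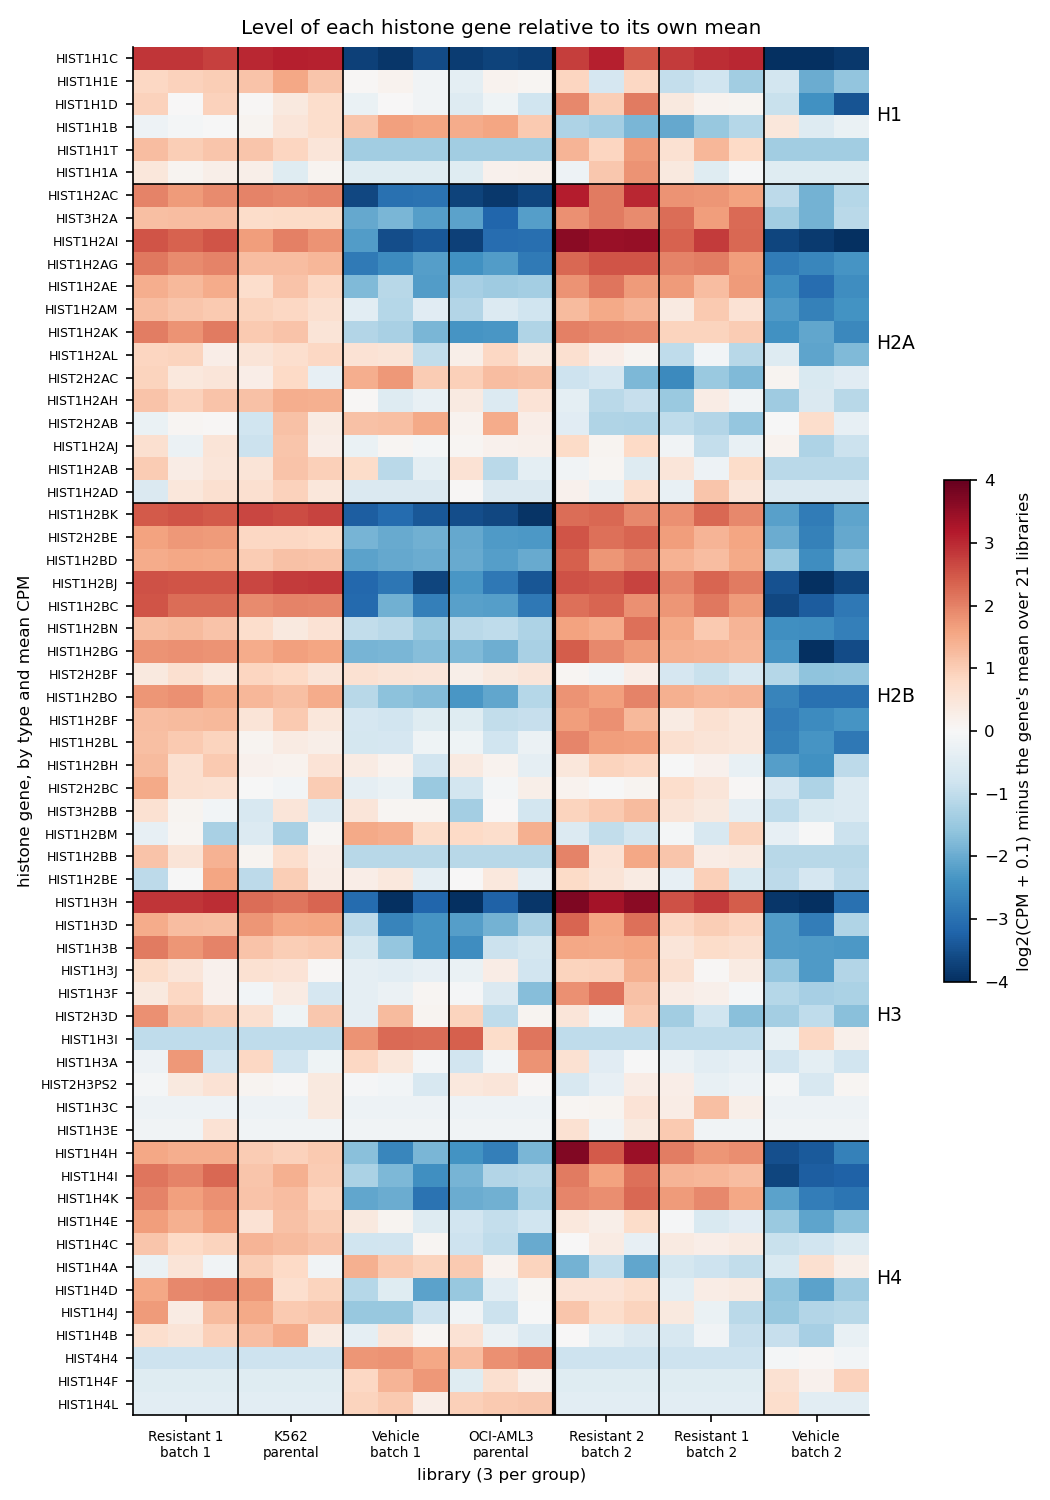
Level of each of the 60 histone genes in each library as log2(CPM + 0.1) minus the gene's own mean over the 21 libraries, by histone type and, within it, by mean CPM; the thick line parts batch 1 from batch 2. Most rows of the upper part of each block are red in resistant and K562 libraries and blue in vehicle and parental OCI-AML3 libraries, while HIST1H3I and HIST4H4 are below their own mean in all resistant and K562 libraries and above it in all vehicle and parental OCI-AML3 libraries of batch 1.

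A small set ran against the family. HIST1H1B (H1-5, chromosome 6, 27866792 to 27867588), a somatic linker histone, had 0.559, 0.627 and 0.656 CPM in resistant 1, 0.732, 0.981 and 1.15 in K562, 1.56, 2.29 and 2.20 in vehicle and 2.06, 2.17 and 1.47 in parental OCI-AML3 of batch 1. In batch 2 it had 0.228, 0.198 and 0.116 CPM in resistant 2, 0.0861, 0.165 and 0.250 in resistant 1 and 0.956, 0.430 and 0.532 in vehicle. Resistant and vehicle libraries did not overlap in either batch, and the log2 fold change was -1.76 (SE 0.28, adjusted p = 1.71e-06) in batch 1, -1.84 (SE 0.49, adjusted p = 0.00355) in resistant 2, -2.04 (SE 0.52, adjusted p = 0.00247) in resistant 1 of batch 2, and -1.10 (SE 0.27, adjusted p = 0.000875) in K562 against OCI-AML3 parental.

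HIST1H4A had 0.419, 0.783 and 0.459 CPM in resistant 1 and 1.56, 1.19 and 1.04 in vehicle of batch 1 and fell by 1.23 on the log2 scale (adjusted p = 0.00137), with -2.40 (adjusted p = 0.00173) in resistant 2. Its call in resistant 1 of batch 2 (-1.25, adjusted p = 0.0440) was fragile: the adjusted p was 0.0506 with the replicate number as a block, and the call ended without any 1 of the 3 resistant 1 libraries (-1.36, -1.24 and -1.16 without replicates 1, 2 and 3), without vehicle replicate 2 (-0.87) or 3 (-1.20) or without resistant 2 replicate 1 (-1.26). HIST2H2AC had 0.978, 0.679 and 0.721 CPM in resistant 1 and 1.505, 1.85 and 1.10 in vehicle of batch 1, and its log2 change was -0.96 (SE 0.28, adjusted p = 0.00262). It fell by 2.77 on the log2 scale in resistant 1 of batch 2 (adjusted p = 0.00418) and was not called in resistant 2 (-1.05, adjusted p = 0.128). These batch 2 values rest on few reads of HIST2H2AC. It had 0, 4 and 2 counts in resistant 1, 10, 11 and 3 in resistant 2 and 23, 10 and 10 in vehicle. In K562 against OCI-AML3 parental the log2 fold change was -1.05 (adjusted p = 0.00803), a call that ended without K562 replicate 3 (-0.74, adjusted p = 0.0700). HIST2H2AB and HIST1H2BM were called lower in batch 1 (-1.78 and -2.46) and were not tested in batch 2.

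HIST1H3I, HIST4H4, HIST1H4F and HIST1H4L had 0 counts in all 9 resistant libraries and in the 3 K562 libraries, and counts in vehicle and parental OCI-AML3. HIST1H3I had 46 counts over the vehicle libraries of batch 1, 35 over parental OCI-AML3 and 16 over vehicle of batch 2. With 3 counts set for the resistant group, HIST1H3I would be 14.5-fold lower in resistant 1 of batch 1. On the same basis it would be 6.30-fold lower in resistant 2 and 5.48-fold in resistant 1 of batch 2. HIST4H4, the lone H4 gene on chromosome 12 (14767999 to 14771131), had 29 counts in vehicle and 25 in parental OCI-AML3 of batch 1. In vehicle of batch 2 it had 8. With 3 counts set for resistant 1 of batch 1, HIST4H4 would be 9.15-fold lower there. HIST1H4F had 15 and HIST1H4L 8 counts in vehicle of batch 1. They would be 4.73-fold and 2.52-fold lower in resistant 1 with 3 counts set there. At these counts the absence of reads does not show absence of the RNA.

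Of 8 histone genes listed as known to give polyadenylated transcripts (HIST1H1C, HIST1H2AC, HIST1H2BC, HIST1H2BD, HIST1H2BJ, HIST1H2BK, HIST2H2BE and HIST4H4), 7 of 7 tested were called higher in resistant 1 of batch 1, and likewise in resistant 2, in resistant 1 of batch 2 and in K562 against OCI-AML3 parental. HIST4H4, the one not tested, had 0 counts in the resistant libraries. Over all genes tested, 44%, 40.2%, 39.9% and 42.6% were called higher in the same comparisons. Of all tested histone genes, 33 of 43, 39 of 43, 37 of 43 and 28 of 37 were called higher in them. In GENCODE, 15 of the 59 searched genes have a transcript that ends over 50 bases past the stem-loop. Those 15 held 28.4% of all histone counts with a median of 8177 counts a gene, while the 44 genes whose transcripts all end near it held 71.5% with a median of 381. HIST1H1C and HIST1H2BK are annotated only as far as 4 and 5 bases past the stem-loop. In the genome, the polyadenylation motif AATAAA begins 13 bases after the stem-loop of HIST1H1C and 13 bases after that of HIST1H2BD, but 1553 bases after that of HIST1H2BK. Gene counts do not show which end a read came from, so tailed and stem-loop forms were not told apart here.

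By position, 29 of the 60 genes lie between 26017032 and 26285638 of chromosome 6 (hg38), 21 between 27125897 and 27893891 of the same chromosome, 9 on chromosome 1 and 1 on chromosome 12. In resistant 1 of batch 1, 44% of all genes tested were called higher and 42.1% lower. There, 16 of 17 tested genes of the first chromosome 6 cluster were higher and 1 lower (median log2 fold change 3.45). In the second cluster 14 of 18 were higher and 3 lower (2.81), and on chromosome 1, 3 of 8 were higher and 2 lower (0.47). In resistant 2 the medians were 4.37, 4.97 and 1.82, and in resistant 1 of batch 2 3.22, 4.34 and 1.26. Chromosome 1 had the lowest median in all 3 comparisons, over 6 to 8 tested genes, and no test of a difference between loci was made.

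Many H2A and H2B genes stand head to head and share the stretch between their start sites. There were 11 histone gene pairs with RefSeq starts within 500 bases on opposite strands, 9 of them with both genes tested. HIST1H3D and HIST1H2AD have the same RefSeq start and pair with the same HIST1H2BF. GENCODE places HIST1H3D, an H3 gene whose pair is among the 9, at 26196784 to 26197286, away from that start. In 7 of the 9 pairs both genes were called higher in resistant 1 of batch 1. In resistant 2 and in resistant 1 of batch 2 this held for 8 of 9. Of all tested histone genes, 33, 39 and 37 of 43 were called higher in these comparisons, beside 44%, 40.2% and 39.9% of all genes. HIST2H2BE and HIST2H2AC, 236 bases apart on chromosome 1, had log2 fold changes of opposite sign in all 3 comparisons. HIST2H2BE changed by 3.57, 4.57 and 3.75 in resistant 1 of batch 1, resistant 2 and resistant 1 of batch 2. HIST2H2AC changed by -0.96, -1.05 (not called) and -2.77 in the same order, with few counts in batch 2. HIST3H2A and HIST3H2BB, 230 bases apart, changed by 3.23 and -0.01 (not called) in batch 1. HIST1H2BL and HIST1H2AI changed by 1.62 and 5.61 in batch 1, both called.

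**Figure D5:**
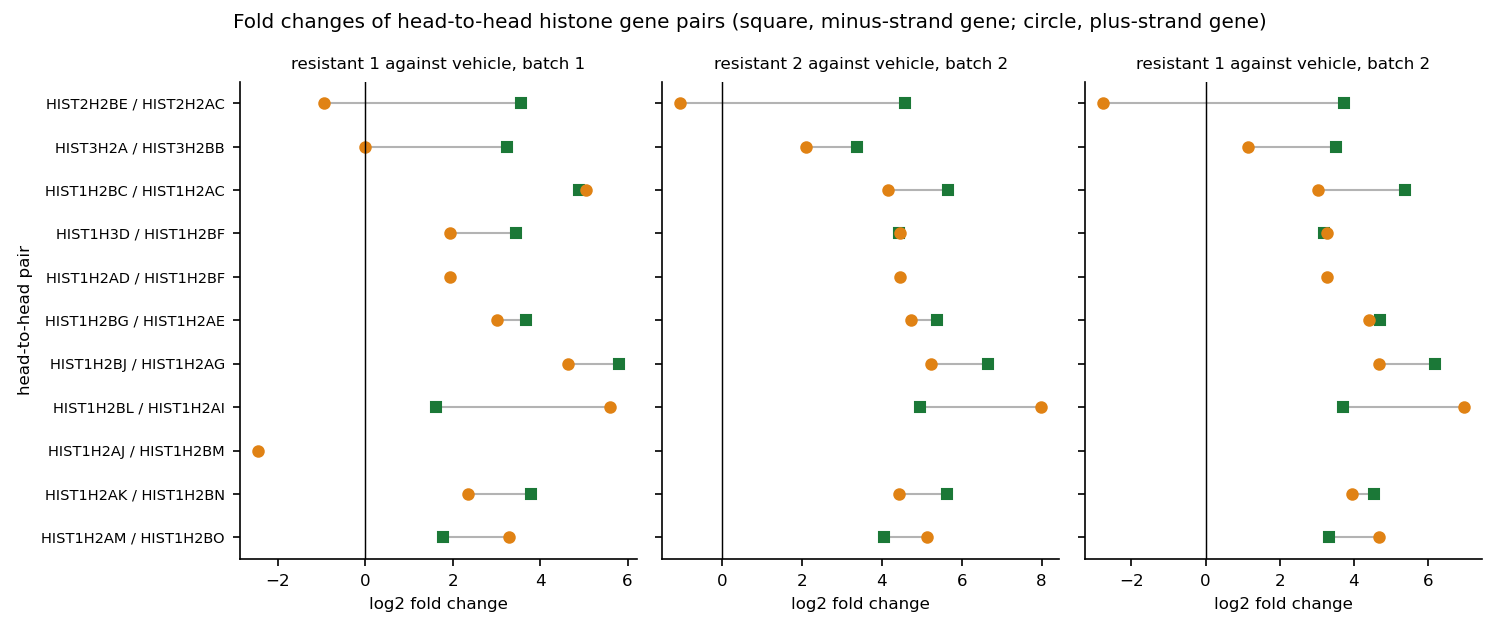
Log2 fold change of both genes of 11 head-to-head histone gene pairs in the 3 resistant against vehicle comparisons; squares are the minus-strand gene, circles the plus-strand gene, and a grey line joins a pair with both genes tested. HIST2H2BE lies at 3.57 and HIST2H2AC at -0.96 in batch 1, on opposite sides of 0.

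Promoters of 54 of the 60 genes, 250 bases before to 50 after the start, were taken from RefSeq (GRCh38.p14). CCAAT, the core of the CCAAT box, stood on either strand in 47 of 54 of them and in 35.7% of 27305 promoters of the same length. It was present in 3 of 10 H4 promoters and in all 6 H1, 13 H2A, 16 H2B and 9 H3 promoters. TATAAA stood in 36 of 54, against 12.0% of all promoters. ATGCAAAT, the octamer bound by POU2F1, stood in 10 of 13 H2A and 12 of 16 H2B promoters, against 1.80% of all promoters. It stood in 1 of 9 H3 promoters and in 0 of the H1 and H4 promoters. That H3 promoter, of HIST1H3D, is in RefSeq the same window as that of HIST1H2AD (chr6:26199244-26199543). GENCODE places HIST1H3D at 26196784 to 26197286, outside the window, so its CCAAT and octamer matches are those of HIST1H2AD. Promoters of 3 genes that rose in all 3 comparisons are shown 5′ to 3′ with these motifs, on either strand, in capitals, since they differ in which motifs they hold and since HIST2H2BE shares its upstream stretch with HIST2H2AC:
HIST1H1C (chr6:26056421-26056720, minus strand): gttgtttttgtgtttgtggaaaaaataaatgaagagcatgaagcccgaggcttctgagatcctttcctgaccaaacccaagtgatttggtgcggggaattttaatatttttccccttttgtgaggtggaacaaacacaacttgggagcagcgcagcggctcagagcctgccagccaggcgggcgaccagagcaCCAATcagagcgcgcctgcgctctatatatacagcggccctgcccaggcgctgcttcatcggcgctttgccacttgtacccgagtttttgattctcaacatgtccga
HIST1H2BJ (chr6:27132746-27133045, minus strand): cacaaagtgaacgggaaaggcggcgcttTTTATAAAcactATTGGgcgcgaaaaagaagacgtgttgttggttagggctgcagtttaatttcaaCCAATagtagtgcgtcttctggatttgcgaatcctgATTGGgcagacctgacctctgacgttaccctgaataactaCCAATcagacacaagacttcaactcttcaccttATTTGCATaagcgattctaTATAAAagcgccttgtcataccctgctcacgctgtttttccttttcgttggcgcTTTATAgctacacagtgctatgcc
HIST2H2BE (chr1:149886633-149886932, minus strand): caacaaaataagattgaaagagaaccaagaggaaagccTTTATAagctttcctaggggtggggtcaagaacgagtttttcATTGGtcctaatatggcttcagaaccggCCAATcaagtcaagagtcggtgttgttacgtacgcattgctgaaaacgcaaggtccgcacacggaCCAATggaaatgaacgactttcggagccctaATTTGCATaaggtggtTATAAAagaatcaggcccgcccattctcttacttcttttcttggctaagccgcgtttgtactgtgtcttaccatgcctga
Where TATAAA overlaps its own reverse complement, as in TTTATAAA, both are in capitals. HIST1H1C has 1 CCAAT and neither other motif, whereas HIST1H2BJ and HIST2H2BE each have all 3. A match is a run of letters and not a bound site, and neighbouring head-to-head genes share part of these windows.

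Resistant 2 against resistant 1 in batch 2 asks whether the 2 resistant replicates differ. Calls were 19 higher, 0 lower and 24 not called of 43 tested, against 24.4% of all 15218 genes called (12.4% higher and 11.9% lower), and the median log2 fold change was 0.80. By 2-fold or more, 10 were higher and 0 lower, beside 5.41% and 3.89% of all genes. Histone genes lower in resistant 2 numbered 0 at adjusted p under 0.05 in edgeR and in DESeq2. HIST1H3F had 1.05, 1.36 and 0.624 CPM in resistant 2 and 0.301, 0.275 and 0.214 in resistant 1, a difference of 1.91 (SE 0.41, adjusted p = 0.00405). HIST1H2AC differed by 1.12, HIST1H2AI by 1.02, HIST1H3H by 0.98, HIST1H4H by 1.39 and HIST2H2BE by 0.82. HIST1H1C (-0.11, adjusted p = 0.627) and HIST1H2BK (0.14, adjusted p = 0.599) were not called, and their groups overlapped. HIST1H1E and HIST1H1D were called with greater differences (1.59 and 1.58), but the HIST1H1E call ended without resistant 1 replicate 3 (1.44) or resistant 2 replicate 1 (1.36) or 3 (1.38), and the HIST1H1D call ended in DESeq2 (adjusted p = 0.0962) and without any 1 of 5 libraries (1.37 to 1.69). Resistant 2 was uneven: replicate 2 had an H4 sum of 43.4 CPM, against 85.9 and 75.6 in replicates 1 and 3. The count of calls was 12 without resistant 2 replicate 1 or replicate 3 and 23 without replicate 2.

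Vehicle against parental OCI-AML3 in batch 1, which sets cells given DMSO against untreated cells of the same line, gave 2 higher, 0 lower and 41 not called of 43 tested, against 37% of all 14505 genes called (18.7% higher and 18.3% lower). Of them 0 were higher by 2-fold or more and 0 lower, beside 3.4% and 1.28% of all genes. HIST1H2BK had 9.33, 10.9 and 8.61 CPM in vehicle and 7.74, 7.34 and 6.01 in parental OCI-AML3, a rise of 0.44 (SE 0.10, adjusted p = 0.00125). HIST1H4E had 2.41, 1.93 and 1.22 CPM in vehicle and 1.03, 0.881 and 0.982 in parental OCI-AML3 and rose by 0.95 (adjusted p = 0.00588), a call that ended without vehicle replicate 1 (0.74, adjusted p = 0.0531). Without parental replicate 2 the calls numbered 4, with HIST2H2AB (1.37) and HIST3H2BB (1.55) added. Summed over all 60 genes, vehicle stood 1.12 times as high as parental OCI-AML3, against 20.5 times for resistant 1 over vehicle.

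Resistant 1 against K562 parental in batch 1 asks how far the libraries labelled resistant differ from the line whose markers they share. Calls were 22 higher, 4 lower and 14 not called of 40 tested (background 59.8%, 31.3% higher and 28.5% lower), and 2 reached 2-fold, against 8.07% of all genes called higher by that much. HIST1H2AK had 3.17, 2.66 and 3.21 CPM in resistant 1 and 1.53, 1.65 and 1.04 in K562, a difference of 1.14 (SE 0.22, adjusted p = 0.000125), and HIST1H4I differed by 1.00 and HIST1H3B by 0.94. HIST2H2BE was higher by 0.89 (adjusted p = 1.02e-11), with 82.6, 89.0 and 87.1 CPM in resistant 1 and 48.1, 47.9 and 46.5 in K562. HIST1H1C, HIST1H2BK, HIST1H2BJ and HIST1H1E were lower, with log2 fold changes of -0.22, -0.16, -0.22 and -0.34; the HIST1H1E call ended in DESeq2 (adjusted p = 0.0835) and without K562 replicate 2 (-0.21), resistant 1 replicate 1 (-0.30) or resistant 1 replicate 2 (-0.36). Summed over all genes of the family, resistant 1 stood at 0.971 times K562, while the sums were 0.842 times for H1, 1.19 for H2A, 0.992 for H2B, 1.46 for H3 and 1.43 for H4.

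Resistant 1 and vehicle were sequenced in both batches, and the test of the difference between the 2 effects called 11 histone genes with a greater effect in batch 2 and 2 with a smaller one, of 45 tested, against 33.2% of all 15209 genes (15% greater and 18.2% smaller). By 2-fold or more these were 9 and 2, beside 7.38% and 3.2% of all genes. HIST1H2BL rose by 3.72 in batch 2 and 1.62 in batch 1, with vehicle at 0.175 ± 0.0493 CPM in batch 2 and 1.11 ± 0.257 in batch 1. HIST1H4I and HIST1H4H showed the same pattern, with vehicle at 0.0490 ± 0.0227 and 0.511 ± 0.192 CPM in batch 2 and 0.362 ± 0.184 and 1.27 ± 0.424 in batch 1. HIST1H2AC and HIST1H2BK went the other way, with vehicle at 6.63 ± 1.96 and 18.3 ± 4.39 CPM in batch 2 and 1.78 ± 0.460 and 9.62 ± 1.17 in batch 1. Across batches the levels also differ in run and depth, which cannot be told apart from the state of the cells. The test fitted 1 spread per gene to both batches, although replicates varied more in batch 2. Between replicates, chi-square per degree of freedom was 1.76 to 4.30 in the batch 1 groups used and 19.5 to 63.9 in those of batch 2. The p-values of this test may thus understate the noise of batch 2. No histone gene was called with opposite signs in resistant 1 of the 2 batches.

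Among factors that transcribe and process histone messengers, SLBP was higher in resistant 1 of batch 1 by 0.19 (adjusted p = 0.000440) and not called in resistant 2 (-0.31, adjusted p = 0.0685) or resistant 1 of batch 2 (-0.26, adjusted p = 0.114; -0.26 and adjusted p = 0.0348 with the replicate number as a block). Both batch 2 calls of SLBP appeared without resistant 2 replicate 2 (-0.48 in resistant 2 and -0.26 in resistant 1). NPAT, the coactivator of the clusters, averaged 69.3 ± 2.58 CPM in resistant 1 and 38.5 ± 1.77 in vehicle of batch 1 and rose by 0.80 (adjusted p = 8.91e-10). It was also called in resistant 2 (0.34, adjusted p = 0.0212) and in resistant 1 of batch 2 (0.34, adjusted p = 0.0218). In resistant 2, leaving out resistant 2 replicate 2 (0.23), vehicle replicate 1 (0.30) or vehicle replicate 3 (0.34) ended the call. In resistant 1 of batch 2, leaving out its replicate 2 (0.30) or 3 (0.33), or that of vehicle numbered 1 (0.30) or 3 (0.34), did so. CASP8AP2 (FLASH), which joins the 3′ processing machinery, was lower in batch 1 (-0.23, adjusted p = 0.000734) and not called in batch 2 (-0.06 in resistant 2 and -0.04 in resistant 1).

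Of 36 genes listed for histone messenger processing and transcription, 19 were higher and 9 lower in resistant 1 of batch 1, 9 and 9 in resistant 2, 9 and 8 in resistant 1 of batch 2, and 19 and 9 in K562 against OCI-AML3 parental. Over all genes tested, the shares called higher and lower were 44% and 42.1% in resistant 1 of batch 1, 40.2% and 35.9% in resistant 2, 39.9% and 35.8% in resistant 1 of batch 2 and 42.6% and 42.5% in K562 against OCI-AML3 parental. LSM10, part of the U7 particle that cuts histone messengers, rose in all 3 resistant comparisons (0.60, 1.27 in resistant 2 and 0.86 in resistant 1 of batch 2), as did FIP1L1, a polyadenylation factor (0.81, 0.49 and 0.52). YY1 (-0.63, -0.62 and -0.89) and SRRT (-0.55, -0.78 and -0.74), which acts with the cap-binding complex, were lower in the same comparisons.

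Of 43 genes of S phase and DNA replication, 24 were higher and 10 lower in resistant 1 of batch 1, with a median log2 fold change of 0.19, and 11 and 10 in resistant 2 and 12 and 8 in resistant 1 of batch 2. This stands beside 44% and 42.1% of all genes called higher and lower in batch 1, 40.2% and 35.9% in resistant 2 and 39.9% and 35.8% in resistant 1 of batch 2. Their summed level was 6852 to 7051 CPM in resistant 1 and 5849 to 5919.7 in vehicle of batch 1, and 5156 to 7095 in resistant 2, 6064 to 7391 in resistant 1 and 5646 to 7619.9 in vehicle of batch 2, where the groups overlapped. CDC45, a helicase component, rose by 1.65, and RFC4, a clamp loader subunit, by 1.49 in resistant 1 of batch 1, with 1.89 and 1.52 in resistant 2. UHRF1, which helps copy DNA methylation, had a log2 fold change of -1.34 in resistant 2. In vehicle against parental OCI-AML3, 25 of the 43 were lower and 2 higher, beside 18.3% and 18.7% of all genes.

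Histone genes outside the replication-dependent set, most of which give polyadenylated messengers through the cell cycle, had more lower than higher calls. Of 12 listed, 10 were tested. In resistant 1 of batch 1, 2 were higher and 7 lower, and in resistant 2, 2 and 5. The numbers were 2 and 4 in resistant 1 of batch 2, and 1 and 7 in K562 against OCI-AML3 parental. In the same order, 44%, 40.2%, 39.9% and 42.6% of all genes were called higher and 42.1%, 35.9%, 35.8% and 42.5% lower. The 4 lower calls of 10 in resistant 1 of batch 2 thus stood near the share over all genes. H2AFY2 and H3F3A were not tested, and H3F3A had 0 CPM in every group. That 0 does not show absence of the RNA, since the annotation and the handling of reads that match several copies are not stated. H1F0, the linker histone of resting and differentiated cells, averaged 0.0795 ± 0.0961 CPM in resistant 1 and 51.8 ± 4.54 in vehicle of batch 1 (log2 fold change -9.12, adjusted p = 6.86e-24), 0.325 ± 0.217 in resistant 2, 0.0621 ± 0.0788 in resistant 1 and 49.2 ± 11.03 in vehicle of batch 2, and 0.0378 ± 0.0331 in K562 and 39.0 ± 3.69 in parental OCI-AML3. H2AFJ, an H2A variant, averaged 0.0722 ± 0.0295 CPM in resistant 1 and 21.4 ± 0.779 in vehicle of batch 1 (-8.14). H1F0 and HIST1H1C thus moved in opposite directions in each resistant against vehicle comparison. H2AFX, which holds the same stem-loop, rose by 0.61 in resistant 1 of batch 1, 0.44 in resistant 2 and 0.50 in resistant 1 of batch 2.

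Of 22 histone chaperone genes, 11 were higher and 8 lower in resistant 1 of batch 1, 7 and 6 in resistant 2, and 8 and 7 in resistant 1 of batch 2, beside 44% and 42.1%, 40.2% and 35.9% and 39.9% and 35.8% of all genes called higher and lower in the same 3 comparisons. HIRA, which deposits H3.3 outside S phase, rose by 1.60 in batch 1, 1.70 in resistant 2 and 1.37 in resistant 1 of batch 2, and CHAF1B, a subunit of the replication-coupled chaperone CAF-1, by 1.10, 1.47 and 1.24. ANP32E, which removes H2A.Z, had log2 fold changes of -1.67 in resistant 2 and -1.26 in resistant 1 of batch 2. MCM2 stands in both the replication and the chaperone list, and SLBP, CCNE1 and CCNE2 in both the processing and the replication list.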

How the data were processed

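RNA of OCI-AML3 and K562 cultures was measured in 21 libraries. The authors deposited raw read counts per gene symbol, 1 table a batch, and the 28008 genes in both tables were used. STAR gene counts are named in the labels' column descriptions, and hg38 and DESeq2 1.22.1 in the submitters' processing notes; the annotation, strand setting and handling of reads that match several copies are not stated in the sources at hand. Histone genes have near-identical copies, and 3 pairs of the 60 genes overlap in GENCODE (HIST1H1T with HIST1H2BC, HIST1H2AM with HIST1H3J, HIST1H2BC with HIST1H4C), so the split of reads among them is uncertain.

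Counts were tested with edgeR 4.0.16 in R 4.3.3 (TMM, filterByExpr, robust quasi-likelihood test, Benjamini-Hochberg adjustment over all genes tested, calls at adjusted p under 0.05), fitting the 3 OCI-AML3 groups of batch 1, the 3 groups of batch 2, and each comparison with K562 as 2 groups. A further fit took resistant 1 and vehicle of both batches, for the difference between batches, with 1 spread per gene over both. CPM use TMM factors over all 21 libraries, and log2 fold changes those of each fit. Intervals from low counts cover counting error only. Folds against a group of 0 counts set 3 counts there and take the other group's count as exact, so they are not lower limits. Replicates differed beyond sampling noise (chi-square per degree of freedom 1.76 to 79.4), so none was merged. Alternatives were RLE scaling, no low-count filter, DESeq2 1.42.0, a replicate block, only the 2 groups compared, and leaving out each library. Labels pair libraries by number only. Same-numbered libraries of resistant 1 and vehicle in batch 2 had correlated deviations (0.100 to 0.143, each above 0.1), read as pairing in that comparison. Each other comparison had a pair below 0.1, though resistant 1 with resistant 2 in batch 2 had 0.146, 0.288 and 0.0943. All reported fits were made without a block, also where pairing was read, and the block was an alternative only. The test was also run on simulated data, in which libraries were drawn independently and only a small part of the genes was changed. That run cannot check the test where most genes change or where libraries are paired.

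The genes and lists were chosen with earlier results of these data known. All 60 histone genes could be named; those with values in every library are up to 3 genes a type with the highest mean CPM and up to 3 called genes with the greatest rise or fall per comparison averaging at least 1 CPM in the higher group, and of other lists up to 3 genes a comparison with the greatest called change; SLBP, NPAT and CASP8AP2 always. H2AFX in the resistant comparisons, and the calls that a left-out library changed, were singled out after their values were seen.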

Additional observations from a re-analysis of the deposited data

Results flagged for a closer look

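The effect of resistant 1 against vehicle differed between batch 2 and batch 1 for 13 of 45 tested histone genes. Over all 15209 genes the share was 33.2%, so histone genes were called no more often than genes of any kind. By direction, 11 had a greater effect in batch 2, beside 15% of all genes, and 2 a smaller one, beside 18.2%. The test was edgeR's test of the interaction, with Benjamini-Hochberg adjustment over all genes. Values are log2 differences, batch 2 minus batch 1. Resistant 1 rose more in batch 2 for HIST1H2BL, by 2.09 (SE 0.40, adjusted p = 0.000658), HIST1H4I, by 2.03 (SE 0.59, adjusted p = 0.0128), and HIST1H4H, by 1.75 (SE 0.34, adjusted p = 0.000675). HIST1H2BN, at 1.57 (SE 0.23, adjusted p = 7.08e-05), and HIST1H2AM, at 1.53 (SE 0.36, adjusted p = 0.00301), differed likewise. So did HIST1H2BO at 1.37, HIST1H2AE at 1.36 and HIST1H2BF at 1.34. HIST1H3J stood at 1.44 (SE 0.54, adjusted p = 0.0488), HIST2H2BF at 0.79 (SE 0.27, adjusted p = 0.0290) and HIST1H1C at 0.50 (SE 0.16, adjusted p = 0.0219). The rise was smaller in batch 2 for HIST1H2BK, at -1.35 (SE 0.23, adjusted p = 0.000360), and HIST1H2AC, at -2.04 (SE 0.28, adjusted p = 4.38e-05). Of the 13, 12 were called higher in both batches, and HIST2H2BF in batch 2 but not in batch 1.

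Some of these calls were fragile. HIST1H3J was lost under 13 alternatives (1.09 to 1.60), HIST2H2BF under 9 (0.69 to 0.80) and HIST1H1C under 5, each a left-out library (0.39 to 0.49: resistant 1 of batch 1 replicate 3, vehicle of batch 1 replicates 1 and 3, and vehicle of batch 2 replicates 1 and 2). HIST1H4I was lost without vehicle replicate 1 of batch 1 (1.63) or of batch 2 (1.65), and HIST1H2AE without vehicle replicate 2 of batch 1 (0.94). The vehicle libraries of the batches differed in depth and in histone detection, and their part in these differences was not tested.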

How the results depend on the processing

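No value called in the reported fit changed sign under an alternative, and the counts of called histone genes stayed within 1.5 times the reported count except as follows. Without the low-count filter, the genes called lower were 5 in resistant 2 against vehicle, 6 in resistant 1 against vehicle of batch 2 and 6 in K562 against OCI-AML3 parental, against 2, 3 and 2, since that setting tests genes of fewer counts. With 1 library left out, calls numbered 12 to 23 for resistant 2 against resistant 1 and 2 to 4 for vehicle against parental OCI-AML3, and greater effects in batch 2 than in batch 1 numbered 7 (without batch 1 vehicle replicate 1) to 13. For resistant 1 against vehicle the counts ran from 37 to 41 in batch 1 and 38 to 41 in batch 2, and for resistant 2 against vehicle from 40 to 44. With the replicate number as a block, calls numbered 39 in resistant 1 of batch 1, 41 in resistant 2, 39 in resistant 1 of batch 2, 22 between the resistant groups, 30 for K562, 24 for resistant 1 against K562 and 12 for the difference between batches; it ended the calls of HIST1H1E (-0.34) and HIST1H4D (0.73) against K562 and of HIST1H3J between batches (1.46), and made those of SLBP in resistant 2 (-0.32) and of HIST1H2BJ, HIST1H2BG and HIST1H2BN between the resistant groups (0.45, 0.65 and 0.48). MBLAC1 in resistant 2 was the one other call it changed, beside those in the report. Own-numbered libraries correlated best in 15 of 18 searches in batch 2 and 4 of 18 in batch 1, a hint from the data and not the design. Over the values of single histone genes under all alternatives, 4312 left the call as reported, 105 ended one and 49 made one. Summed over all genes without HIST1H1C and HIST1H2BK, an alternative added after seeing the data, histone RNA was 499 CPM in resistant 1 and 56.9 in vehicle of batch 1. Depth limits genes of few counts: 17 of 60 were not tested in batch 1, and a 0 there does not exclude low expression.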
